A study of Mus musculus with 12 samples.

Results

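The regions described here are 277 broad H3K4me3 domains that were called in a Kmt2d mutant mouse melanoma line and had no broad counterpart in a Kmt2d wild-type (WT) line. A domain was taken when its mutant H3K4me3 peak was at least 4.0 kb wide and overlapped no WT H3K4me3 peak of that width by even 1 bp. This held for 277 of the 1737 mutant peaks of that width, or 15.9%, out of 17987 mutant H3K4me3 peaks in all. The other 1460 mutant broad domains overlapped a broad WT peak and are called domains broad in both lines. In the other direction, 747 of 2207 broad WT peaks (33.8%) overlapped no broad mutant peak. The domains were thus chosen by their measured H3K4me3 widths in both lines, and everything said below about their H3K4me3 is a description. Their H3K27ac, H3K4me1 and H3K27me3, their gene content and their promoter sequence played no part in the choice, but the share of a mark can still vary with the H3K4me3 widths that did.

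The WT cells are line 971 and the mutant cells line 493, both labelled melanoma and grown in DMEM/F12 medium with serum and antibiotics. The labels do not give the mutation, how it was made, or the tumours of origin, and each genotype is represented by 1 line. Each line was profiled by chromatin immunoprecipitation and sequencing (ChIP-seq) for 4 histone marks with 1 library per mark, beside 4 input libraries that are not analysed here. With 0 replicates no spread between samples could be measured, so line, library and genotype cannot be told apart and no p-value is given. Intervals in brackets are 95% Wilson intervals, which cover counting error only. In bulk chromatin, a mark in fewer cells and less mark per cell cannot be told apart either.

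H3K4me3 is laid down around active transcription start sites, usually in a peak of limited width. At a minority of genes it spreads far into the gene body, and such broad domains are known from genes that maintain cell identity and from tumour suppressors, where they accompany high and steady transcription. KMT2D is mainly an H3K4 mono-methyltransferase of enhancers, while the bulk of promoter H3K4me3 depends on the SETD1 and KMT2A/KMT2B complexes. H3K27ac marks active promoters and enhancers, H3K4me1 marks enhancers and the flanks of promoters, and H3K27me3 is the Polycomb mark of silenced developmental genes. Sites with both H3K4me3 and H3K27me3 are called bivalent and are typical of CpG-rich promoters of developmental regulators.

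The labelled cell type was only in part visible in the H3K4me3 lists. Markers were matched at their start, or at a gene end where no start was known, as for Sox10, Lgi4 and Erbb3. Of 15 melanocyte markers, 6 had a mutant H3K4me3 peak there and 3 a WT peak. Tyr, Tyrp1, Dct, Oca2, Kit, Ednrb, Mc1r, Gpr143 and Trpm1 had none in either line, and Sox10, Mlana and Slc45a2 had one in the mutant line alone. Of 12 Schwann and glial markers 8 and 6 were marked in the mutant and WT lines, of 9 fibroblast markers 4 and 5, of 10 keratinocyte markers 5 and 2, of 6 endothelial markers 1 and 1, and of 7 immune markers 0 and 0. The part of differing cell states in the results below was not tested.

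Promoter sequences are shown for 6 of the genes on which the results turn, as the window from 250 bases before to 50 bases after the transcription start (RefSeq, GRCm38.p6, the assembly of mm10). They run 5′ to 3′ in the direction of transcription, with each CpG in capitals, because CpG density is the sequence feature most closely tied to both H3K4me3 and H3K27me3. The first 3 belong to domains that had no WT H3K4me3 peak at all, and the windows lie at chr13:51408368-51408667 (+) for S1pr3, chr14:96518985-96519284 (−) for Klhl1 and chr7:96211421-96211720 (+) for Tenm4.
S1pr3: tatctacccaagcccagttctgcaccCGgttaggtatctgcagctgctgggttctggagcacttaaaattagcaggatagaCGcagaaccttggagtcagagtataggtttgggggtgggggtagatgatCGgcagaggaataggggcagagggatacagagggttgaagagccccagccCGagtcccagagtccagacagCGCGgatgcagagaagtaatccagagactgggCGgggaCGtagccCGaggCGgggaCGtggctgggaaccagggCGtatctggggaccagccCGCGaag
Klhl1: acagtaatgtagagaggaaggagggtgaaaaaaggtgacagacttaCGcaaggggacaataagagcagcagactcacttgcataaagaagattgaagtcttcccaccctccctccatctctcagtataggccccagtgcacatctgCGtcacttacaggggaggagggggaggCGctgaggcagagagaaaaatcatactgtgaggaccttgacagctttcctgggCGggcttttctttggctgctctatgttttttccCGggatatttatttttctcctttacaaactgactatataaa
Tenm4: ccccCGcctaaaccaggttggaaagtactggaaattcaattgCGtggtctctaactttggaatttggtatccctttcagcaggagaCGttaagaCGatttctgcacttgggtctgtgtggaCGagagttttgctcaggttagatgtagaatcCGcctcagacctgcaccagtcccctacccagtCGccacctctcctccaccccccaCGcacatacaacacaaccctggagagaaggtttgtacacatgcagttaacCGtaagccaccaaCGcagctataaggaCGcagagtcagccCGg
The next 3 belong to developmental regulators whose H3K4me3 was far narrower in the WT line, where the domain also held H3K27me3. They lie at chr9:24774254-24774553 (−) for Tbx20, chr19:59458440-59458739 (+) for Emx2 and chr13:116309639-116309938 (−) for Isl1, and Emx2 and Isl1 were chosen for display after their values were seen.
Tbx20: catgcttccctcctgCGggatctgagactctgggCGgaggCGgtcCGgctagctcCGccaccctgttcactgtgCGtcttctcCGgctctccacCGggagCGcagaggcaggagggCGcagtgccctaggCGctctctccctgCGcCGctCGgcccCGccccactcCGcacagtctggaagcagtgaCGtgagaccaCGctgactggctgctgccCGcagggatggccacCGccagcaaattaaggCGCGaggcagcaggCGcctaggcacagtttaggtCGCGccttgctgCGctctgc
Emx2: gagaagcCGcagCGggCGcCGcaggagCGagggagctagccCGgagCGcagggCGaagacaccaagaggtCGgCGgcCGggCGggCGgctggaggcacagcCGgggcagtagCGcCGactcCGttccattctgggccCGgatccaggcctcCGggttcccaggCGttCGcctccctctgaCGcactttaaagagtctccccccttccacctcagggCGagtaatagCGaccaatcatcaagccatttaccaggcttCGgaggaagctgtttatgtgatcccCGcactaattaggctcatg
Isl1: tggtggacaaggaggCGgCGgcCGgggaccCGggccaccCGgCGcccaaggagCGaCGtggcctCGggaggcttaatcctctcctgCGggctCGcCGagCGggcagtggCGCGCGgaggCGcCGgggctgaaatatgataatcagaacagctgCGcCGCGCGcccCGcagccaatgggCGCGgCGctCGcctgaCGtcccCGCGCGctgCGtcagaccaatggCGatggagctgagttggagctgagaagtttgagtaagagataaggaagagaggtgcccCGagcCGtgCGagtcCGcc
The windows of S1pr3, Klhl1 and Tenm4 hold 14, 5 and 12 CpG, with observed-to-expected CpG ratios of 0.573, 0.304 and 0.595. Those of Tbx20, Emx2 and Isl1 hold 26, 26 and 37 CpG, with ratios of 0.745, 0.838 and 1.05. The first 3 are therefore CpG-poorer than the second 3 and than most promoters of the 277 domains, as given further below.

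The domains were mostly modest extensions of a peak that the WT line had too. Their widths ran from 4.0 to 9.23 kb with a median of 4.33 kb, and the middle part of the distribution lay between 4.13 and 4.79 kb. In the mutant line, domains broad in both lines were wider than the 277, with a median of 4.94 kb and a maximum of 25.4 kb. Against the WT line they were not wider. Their widest WT peak had a median of 5.16 kb, and the mutant width minus it had a median of -0.190 kb. Between 4.0 and 4.5 kb lay 171 of the 277 (61.7%), against 444 of 1460 (30.4%), and 20 (7.22%) reached 6 kb, against 327 (22.4%). The deposited peak score reached 3100, a value that recurs among the strongest peaks, in 216 domains (78.0%) and in 1356 domains (92.9%) broad in both lines. That recurring value cannot rank the strongest peaks against each other.

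Under 6 domains (2.17%) no WT H3K4me3 peak was called, under 164 (59.2%) there was 1, and under 107 (38.6%) there were 2 or more. By comparison, 8.24% of mutant H3K4me3 peaks of any width lacked a WT peak (1482 of 17987), and the 6 are 0.345% of all mutant broad domains. The widest WT peak under a domain had a median width of 3.58 kb. It was at least 3.5 kb wide under 155 domains (56.0%), at least 3 kb under 222 (80.1%) and under 2 kb, or missing, under 21 (7.58%). The mutant domain exceeded it by a median of 0.864 kb, in a range of 0.0300 to 6.83 kb. The excess was below 0.5 kb in 84 domains (30.3%), at least 2 kb in 55 (19.9%) and at least 3 kb in 30 (10.8%), and 35 (12.6%) were at least 2-fold as wide as the WT peak. Most of the 277 thus had a WT peak that was close to the threshold itself. Where mutant and WT widths are paired below, the WT width is that of the widest WT peak. Further WT peaks may cover more of the domain.

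**Figure D1:**
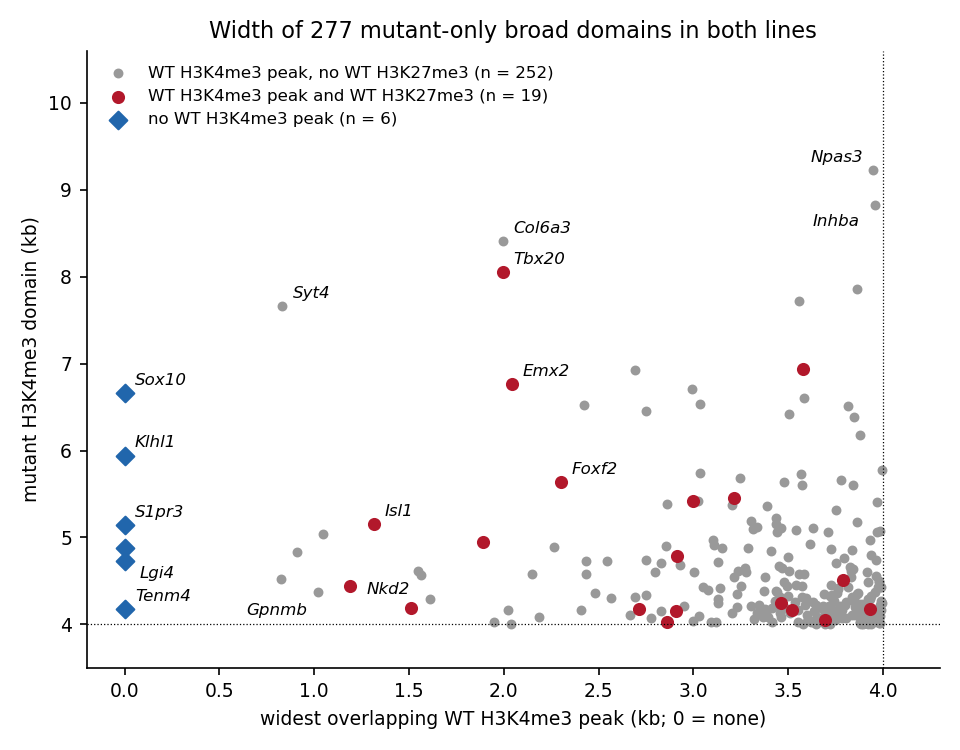
Width of each of the 277 domains in the mutant line (vertical axis, kb) against the width of the widest WT H3K4me3 peak under it (horizontal axis, kb; 0 where no WT peak was called). Dotted lines mark the 4 kb threshold of both lists, red points have WT H3K27me3, and most points crowd in the corner where both widths are close to 4 kb.

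The values on either side of the threshold show how fine it is. The 3 narrowest domains, of 4002, 4004 and 4005 bp, lay at Rnf44, a RING finger gene, Tgfb2, a TGF-beta ligand, and the pair Rab37 and Slc9a3r1, with WT peaks of 3.90, 3.58 and 3.94 kb. The 3 widest mutant peaks that just missed it, of 3999, 3998 and 3997 bp, were at Tnfrsf11b, the osteoprotegerin gene, Tfg and Usp25, with WT peaks of 3.44, 3.35 and 3.93 kb.

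Among domains over 2 or more WT peaks, much of the difference was whether neighbouring peaks were called as 1 stretch. In 83 of those 107 (77.6%) the WT peaks together covered at least 80% of the domain, with a median of 94.7% over the 107. The domain shared by Hexa, the lysosomal hexosaminidase subunit, and Tmem202 was covered to 99.9%, that of Prr12 to 99.8%, that of Eif2ak3, the PERK kinase of the unfolded protein response, to 99.7% and that of Fhl3, a LIM-domain protein, to 99.6%. Over all 277 domains WT peaks covered a median of 88.4% of the bases, at least 90% in 117 (42.2%) and under 50% in 18 (6.50%). When WT peaks within 1 kb of each other were joined, 93 of the 277 (33.6%) overlapped a WT stretch of at least 4 kb.

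The 6 domains without any WT H3K4me3 peak lay at 5 gene starts or ends and in 1 gene body. Klhl1, a neuronal actin-binding Kelch protein, had a domain of 5.94 kb (chr14:96513286-96519227, score 3100) with no peak of any other mark. S1pr3, a sphingosine-1-phosphate receptor, had 5.14 kb (chr13:51407992-51413134, score 3100) with a mutant H3K27ac peak of 182 bp (deposited fold 4.39) and no WT mark. Sox10, the transcription factor of melanocytes, Schwann cells and their neural crest precursors, had 6.66 kb (chr15:79157964-79164621, score 2876). In the WT line the same stretch held no H3K4me3 and 5.98 kb of H3K27me3, 89.9% of the domain, with an 88 bp H3K27ac peak (fold 4.35).

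Tenm4, a teneurin of neural and glial development, had 4.17 kb (chr7:96209596-96213770, score 2229) at an alternative start inside the gene, 38.4 kb from the nearest gene end. Lgi4, a ligand secreted by Schwann cells that promotes peripheral myelination, had 4.73 kb inside the gene (chr7:31059561-31064291, score 1892), 0.652 kb from a gene end. The sixth lay inside Gas7, a growth-arrest gene of neurons, 72.8 kb from the nearest gene end, that of Glp2r (chr11:67586520-67591394, 4.88 kb, score 1647). There the WT line had 0.622 kb of H3K4me1 and an 88 bp H3K27ac peak (fold 5.84) in place of H3K4me3. Sox10 and Lgi4 are both genes of the glial lineage, and 1 of the 6 domains had mutant H3K27ac and 0 had mutant H3K4me1.

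Of the 10 domains with the largest width beyond WT, 5 had a WT peak, namely those at Syt4, Col6a3, Tbx20, Npas3 and Inhba. Syt4, a synaptotagmin of vesicle exocytosis, had 7.66 kb in the mutant and 0.833 kb in the WT line (chr18:31440429-31448089), where the WT peak had a score of 236 against 3100. Col6a3, a collagen VI chain, had 8.41 kb (chr1:90836445-90844855) over WT peaks of which the wider was 2.0 kb and the strongest scored 269. It also held 0.916 kb of H3K4me1 in the mutant and 0.308 kb in the WT line. At Npas3, a neural bHLH-PAS factor, the widths were 9.23 and 3.95 kb (chr12:53246300-53255528), with 0.427 and 0.142 kb of H3K27ac in the mutant and WT lines. A domain of 8.83 kb within Inhba, the activin A subunit gene, stood over a WT peak of 3.96 kb (chr13:16014205-16023032). The WT line thus had a near-broad peak at Npas3 and Inhba, where WT peaks together covered 71.8% and 59.4% of the domain. At Syt4 and Col6a3 the WT peaks were weak.

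Gpnmb, a melanosomal glycoprotein and MITF target, had 4.38 kb in the mutant and 1.02 kb in the WT line (chr6:49036071-49040445), where WT peaks covered 23.3% of the domain. Its mutant H3K27ac covered 0.112 kb and no WT H3K27ac peak was called there. A domain inside Tnnt2, cardiac troponin T, was 5.04 kb wide over a WT peak of 1.05 kb and carried 1.61 kb of mutant and 0.692 kb of WT H3K4me1. The 5 domains of highest score, all above 3100, were less extreme in width. They lay at Ctsb, the cathepsin B protease (score 3233, 4.88 against 3.15 kb), inside Robo2, an axon guidance receptor (3216, 4.60 against 2.80 kb), 62.9 kb from Sox4 (3201, 4.58 against 2.15 kb), at Mmadhc, of cobalamin metabolism (3195, 4.02 against 3.90 kb), and at Bmi1, a Polycomb repressive complex 1 subunit (3181, 4.17 against 3.52 kb).

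**Figure D2:**
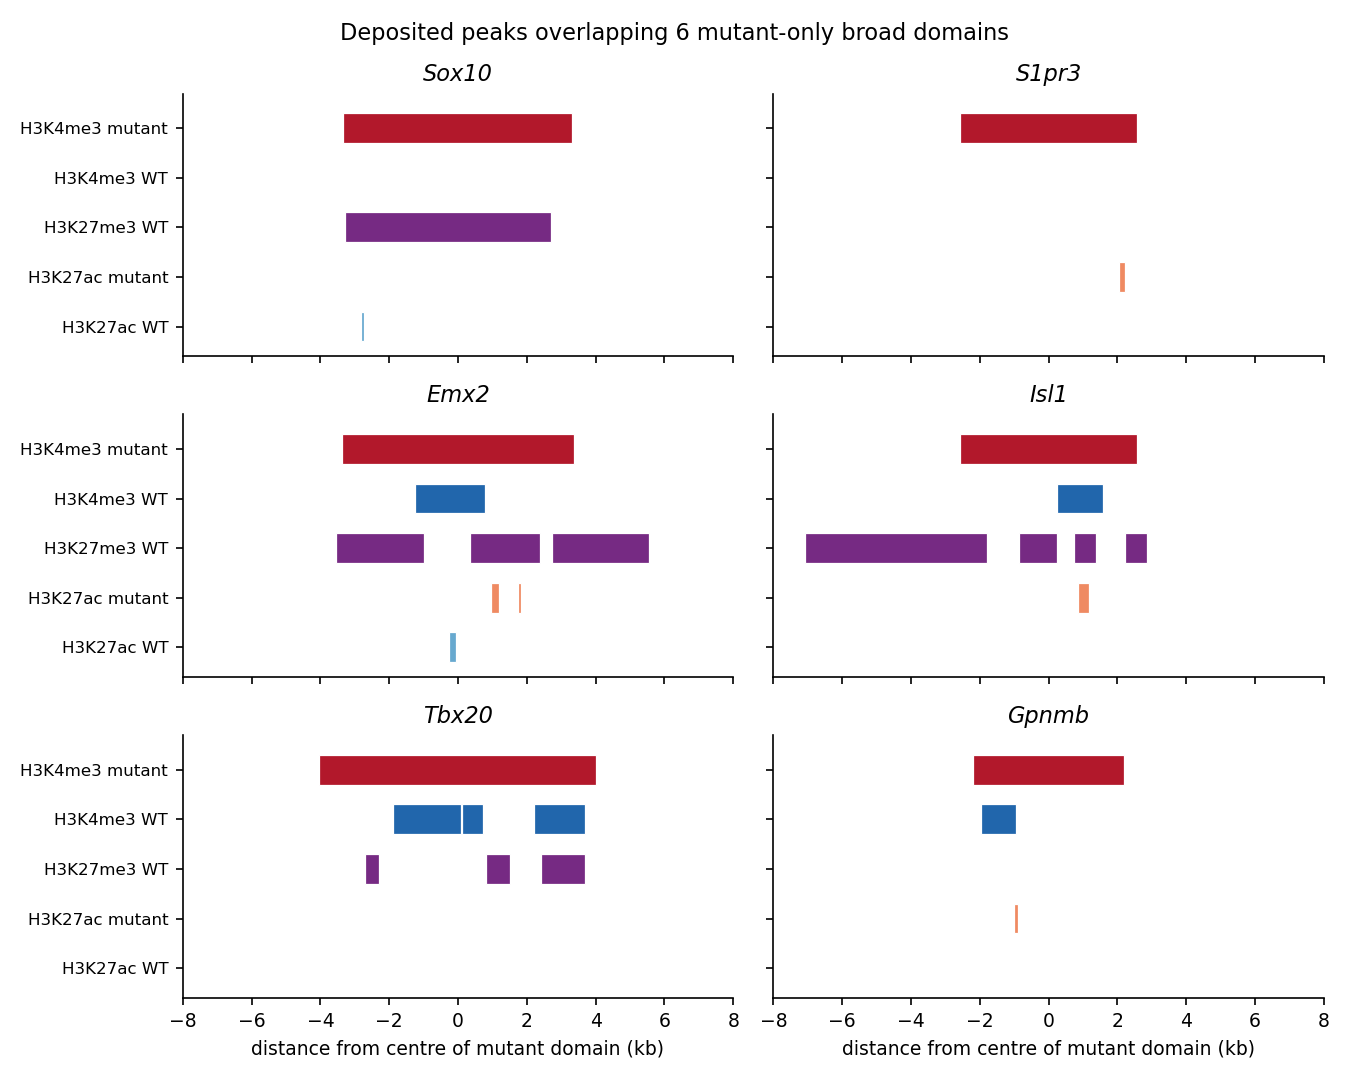
Peaks of 5 lists (rows) that overlap the mutant domains at Sox10, S1pr3, Emx2, Isl1, Tbx20 and Gpnmb, drawn to scale by distance from the centre of each mutant domain (horizontal axis, kb). At Sox10 the WT row of H3K4me3 is empty and the H3K27me3 bar covers 89.9% of the domain, and at Emx2, Isl1 and Tbx20 short WT H3K4me3 peaks lie among H3K27me3 peaks.

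H3K27me3 of the WT line was present at 20 of the 277 domains, 7.22% (4.72 to 10.9), against 7 of 1460, 0.479% (0.232 to 0.986), of the domains broad in both lines and 5 of 747 (0.669%) of those broad in the WT line alone. Of the 20, 6 were at genes of the list of developmental regulators described further below. The matching count over all mutant H3K4me3 peaks with WT H3K27me3 was not made, so these 6 do not set the domains apart. The share of 7.22% was close to the 7.47% found over mutant H3K4me3 peaks of any width, so it stands apart from other broad domains and not from H3K4me3 peaks at large. The background over all mutant broad domains was 1.55%. By width class it was 5.26% (9 of 171) against 0.450% at 4.0 to 4.5 kb, 5.77% (3 of 52) against 0.929% at 4.5 to 5 kb, 11.8% (4 of 34) against 0.546% at 5 to 6 kb, and 20% (4 of 20) against 0 of 327 from 6 kb up. The share was higher in each class, and the intervals overlapped at 4.5 to 5 kb (1.98 to 15.6 against 0.316 to 2.69).

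The share depended on how much H3K4me3 the WT line had, which the rule itself limited. Where the widest WT peak measured 2 to 3 kb, 7 of 34 domains (20.6%, 10.3 to 36.8) held WT H3K27me3, against 20 of 394 (5.08%, 3.31 to 7.71) mutant peaks of 3 to 4 kb over WT peaks of the same width. Below 2 kb the shares were 5 of 15 (33.3%, 15.2 to 58.3) and 11 of 58 (19%, 10.9 to 30.9), whose intervals overlap. At 3 to 3.5 kb they were 2 of 67 (2.99%) and 11 of 816 (1.35%), and at 3.5 to 4 kb 5 of 155 (3.23%, 1.39 to 7.33) and 7 of 744 (0.941%, 0.456 to 1.93), again with overlapping intervals. Thus the comparison at like WT width separated the domains from narrower mutant peaks at 2 to 3 kb and in no other class. This comparison was added after the values were seen.

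The 20 domains were wider and less covered by WT H3K4me3 than the other 257, with median widths of 4.65 and 4.32 kb, median widest WT peaks of 2.88 and 3.60 kb and median WT coverage of 70.0% and 89.0%. Mutant H3K27ac was called at 5 of the 20 (25%) and at 141 of the 257 (54.9%), and WT H3K27ac at 9 (45.0%) and 171 (66.5%). Mutant H3K4me1 was at 1 of the 20 and WT H3K4me1 at 0, against 64 and 31 of the others. The recurring score of 3100 was reached by 9 of the 20 and by 207 of the 257.

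At the homeodomain and T-box genes the WT H3K4me3 peak was short and flanked or overlain by H3K27me3. Emx2, a cortical and urogenital homeobox gene, had 6.76 kb of H3K4me3 in the mutant (chr19:59455836-59462595) and 2.04 kb, with a score of 560, in the WT line, and WT H3K27me3 covered 5.09 kb, or 75.3%, of the domain. Isl1, a LIM-homeobox gene of motor neurons and heart progenitors, had 5.15 kb (chr13:116306512-116311662) against 1.32 kb with a score of 499, and 2.90 kb (56.3%) of WT H3K27me3. It had a 317 bp H3K27ac peak in the mutant list and none in the WT list. Tbx20, a cardiac T-box gene, had 8.05 kb (chr9:24767208-24775260) over 3 WT peaks with scores of 1039, 330 and 125, the widest 1.99 kb, and 2.39 kb (29.7%) of WT H3K27me3. The CpG-dense Emx2 and Isl1 windows printed above lie within these stretches.

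Further transcription factor genes were among the 20. Foxf2, a forkhead gene of mesenchyme, had 5.64 against 2.30 kb, with H3K27me3 over 53.6%. Shox2, a limb and sinoatrial homeobox gene, had 4.18 against 2.71 kb and 54.2%, and Pax9, of tooth and thymus, 4.51 against 3.79 kb with 0.228 kb. Gfi1, a zinc-finger repressor of haematopoiesis, differed from these in that its WT peaks covered 95.3% of the domain while H3K27me3 covered 90.9%, and its score of 1099 was among the lowest. Atf3, a stress-induced bZIP factor, had 4.79 against 2.92 kb with 1.40 kb of H3K27me3, and Lef1, an effector of Wnt signalling, 5.42 against 3.0 kb with 0.239 kb.

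The H3K27me3 domains also included signalling and neuronal genes. Nkd2, an inhibitor of Wnt signalling, had 4.44 against 1.19 kb and H3K27me3 over 44.6%. Nptx1, a neuronal pentraxin, had 6.94 against 3.58 kb and 53.9%, Shc3, a neural adaptor protein, 4.18 against 1.51 kb and 62.9%, and Nr3c2, the mineralocorticoid receptor, 4.15 against 2.91 kb and 40.2%. WT H3K4me3 peaks together covered 51.6%, 58.1% and 85.4% of the Nptx1, Shc3 and Nr3c2 domains. Pcdh17, a protocadherin, and Efna5, an ephrin ligand, had 0.641 and 0.490 kb of H3K27me3. The remaining 4 were Dpf3, a BAF complex subunit (0.891 kb), Kcnn1, a potassium channel (0.850 kb), Bmi1 (0.730 kb) and Chic1 (0.0370 kb).

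WT H3K27me3 lay on the very bases that were added in the mutant line at part of these genes. Over all 277 domains, 257 kb (19.9%) had H3K4me3 in the mutant list alone and 1030 kb in both lists. WT H3K27me3 covered 8.19% of the former (21.0 kb) and 1.93% of the latter (19.8 kb), while in domains broad in both lines it covered 0.0860% and 0.0825%. Without the split it covered 3.17% of the bases of the 277 domains and 2.78% of those of mutant H3K4me3 peaks of any width. The split rests on WT H3K4me3, which the rule used, and was not made over all mutant peaks. It is therefore a description and does not set the domains apart. The share of a domain's WT H3K27me3 that lay on mutant-only bases was 100% at Sox10, 85.9% at Emx2, 77.9% at Isl1, 77.7% at Nkd2, 64.3% at Pcdh17, 56.7% at Shc3, 50.7% at Foxf2 and 47.1% at Tbx20. At Gfi1 it was 5.13%, at Atf3 3.58%, at Nr3c2 1.74%, and at Pax9, Efna5, Bmi1 and Lef1 0%. In between lay Shox2 at 40.6%, Nptx1 at 23.1%, Kcnn1 at 13.4% and Dpf3 at 9.43%, and at Chic1 all of 0.0370 kb was on mutant-only bases. The shares thus formed a range with no clear break. Sox10 and Emx2 alone supplied 5.98 and 4.38 kb of the 21.0 kb.

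**Figure D3:**
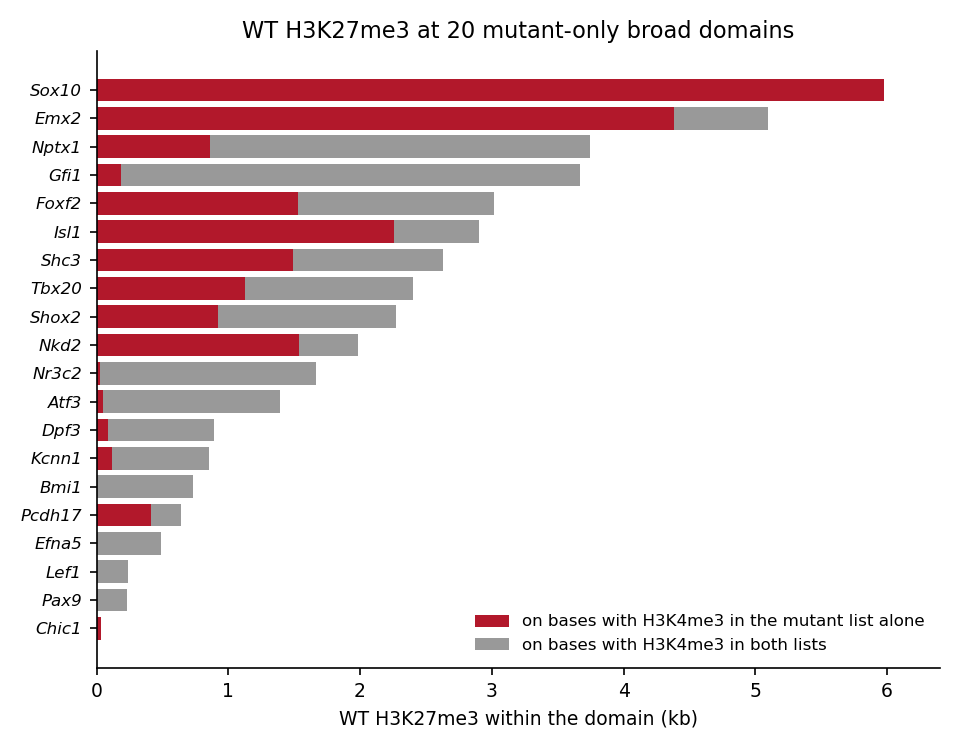
Length of WT H3K27me3 within each of the 20 domains that hold any (horizontal axis, kb), split into bases with H3K4me3 in the mutant list alone (red) and in both lists (grey). Sox10 and Emx2 hold the longest red bars, 5.98 and 4.38 kb, while at Gfi1 3.48 of 3.66 kb lies on bases with H3K4me3 in both lists.

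Whether these domains kept H3K27me3 in the mutant line is not analysed here, because the mutant list was called against WT H3K27me3 in place of input, per its file name, and so holds regions where the mutant had more. None of the 277 domains overlapped such a region, which allows a share of up to 1.08%. The background was 0.0500% of mutant H3K4me3 peaks of any width and 2 of 1460 domains (0.137%) broad in both lines, so a count of 0 is near what those shares give. The 7 domains broad in both lines that did hold WT H3K27me3 were at Trp73 and Wrap73, Onecut2, Ccnd2, Smarca2, Phf21b, Zfp536 and Marchf4.

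H3K27ac, the acetylation of active promoters, was called at 146 of the 277 domains in the mutant list, 52.7% (46.8 to 58.5), and at 180 in the WT list, 65.0% (59.2 to 70.4). Domains broad in both lines had higher shares, 62.9% (60.4 to 65.4) and 75.5% (73.2 to 77.6). Of mutant H3K4me3 peaks of any width, which are mostly narrower and so have less room for a peak, 29.7% and 40.7% overlapped H3K27ac. By bases the broad classes were not higher. Mutant H3K27ac covered 2.28% of the bases of the 277 domains, 2.31% in domains broad in both lines and 2.23% in mutant peaks of any width. WT H3K27ac covered 3.25%, 3.26% and 3.59%. In domains broad in the WT line alone the 2 lists covered 1.72% and 3.05%. By width class the mutant shares were 53.8% and 56.1% at 4.0 to 4.5 kb, 40.4% (28.2 to 53.9) and 59.1% (53.7 to 64.4) at 4.5 to 5 kb, 64.7% and 65.6% at 5 to 6 kb, and 55% (34.2 to 74.2) and 73.1% (68.0 to 77.6) from 6 kb up, with overlapping intervals in each class. The WT shares were 66.7% and 72.7%, 63.5% and 75.2%, and 67.6% and 74.6% in the 3 classes below 6 kb, again with overlapping intervals. From 6 kb up they were 50% (10 of 20, 29.9 to 70.1) and 80.4% (75.8 to 84.4), whose intervals do not overlap. Background shares over all mutant broad domains were 61.3% and 73.8%.

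The wider H3K4me3 was not matched by more frequent H3K27ac. Peaks of both H3K27ac lists lay at 110 domains (39.7%), of the mutant list alone at 36 (13.0%), of the WT list alone at 70 (25.3%) and of neither at 61 (22.0%). In domains broad in both lines these shares were 50.5%, 12.5%, 25% and 12.1%, so the 2 sets had like shares of one-line acetylation and differed in the shares with both or neither. The WT list is the longer (26415 against 18751 peaks), and when it was shortened to the mutant number by the authors' p-value the WT share at the 277 domains was 54.9%, close to the mutant share. On bases with H3K4me3 in the mutant alone, mutant H3K27ac covered 0.490% and WT H3K27ac 0.142%, against 2.73% and 4.03% of bases with H3K4me3 in both lists. Domains broad in both lines had the same pattern, 0.450% and 0.203% against 2.37% and 3.37%.

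Domains with the most mutant H3K27ac belonged to genes with a near-broad WT peak. Rfx3, a regulator of ciliogenesis, had 0.614 kb in the mutant and 0.282 kb in the WT line, over H3K4me3 widths of 4.37 and 3.44 kb. Raph1, of the actin-regulating lamellipodin family, had 0.520 and 0.396 kb, and Rps13, a small ribosomal subunit protein, 0.441 and 0.252 kb. Hspa9, the mitochondrial HSP70, had more in the WT line, 0.490 and 0.701 kb. At Yap1, the Hippo pathway coactivator, H3K27ac was alike at 0.441 and 0.418 kb, as was H3K4me1 at 0.469 and 0.472 kb.

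H3K4me1, the mark that KMT2D places, was called at more of the domains in the mutant list, 65 or 23.5% (18.9 to 28.8), than in the WT list, 31 or 11.2% (8.0 to 15.4). The mutant list held 3649 peaks in all and the WT list 17373, so the order within the domains ran against list length. With the WT list shortened to 3649 peaks the WT share was 1.81%. A mutant majority was also present in domains broad in both lines, 28% (25.8 to 30.4) against 21.2% (19.2 to 23.4), and absent in domains broad in the WT line alone, 23.0% against 32.3% (29.0 to 35.7). Over mutant H3K4me3 peaks of any width the shares were 9.20% and 7.65%, and over all mutant broad domains 27.3% and 19.6%. The WT share was thus lowest, and the mutant share like the others, among these 3 classes of broad domain.

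By domain, H3K4me1 was in the mutant list alone at 49 (17.7%), in the WT list alone at 15 (5.42%), in both at 16 (5.78%) and in neither at 197 (71.1%). Domains broad in both lines had 17.3%, 10.5%, 10.7% and 61.4%. At like mutant width, WT H3K4me1 was at 9.36% (5.84 to 14.7) of the domains of 4.0 to 4.5 kb against 17.6% (14.3 to 21.4) of those broad in both lines, 13.5% against 17.3% at 4.5 to 5 kb, 17.6% against 22.1% at 5 to 6 kb, and 10% (2 of 20, 2.79 to 30.1) against 29.1% (24.4 to 34.2) from 6 kb up. The intervals overlap in each class. Against mutant peaks of 3 to 4 kb over WT H3K4me3 peaks of like width, the order of the shares varied between classes. WT H3K4me1 was at 13.3% of the domains against 8.62% below 2 kb, 2.94% against 7.36% at 2 to 3 kb, 16.4% against 8.09% at 3 to 3.5 kb and 10.3% against 10.5% at 3.5 to 4 kb, with overlapping intervals in each class. Mutant H3K4me1 was at 26.7% against 6.90%, 8.82% against 15.5%, 26.9% (17.7 to 38.5) against 17.5% (15.1 to 20.3) and 25.8% (19.6 to 33.2) against 14.7% (12.3 to 17.4) in the same classes. The intervals for the mutant list were separate in the last of them alone.

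The largest amounts of mutant H3K4me1 lay on chromosomes 1 and 19 among others. The domain of Ganab, a glucosidase of glycoprotein folding, and Ints5, an Integrator subunit, had 1.78 kb in the mutant line and 0 kb in the WT line over a 4.72 kb domain (chr19:8895270-8899987). Cemip2, a hyaluronidase-like protein, had 0.751 and 0 kb, and a domain 25 kb from Lbp, the LPS-binding protein gene, 0.828 and 0.565 kb. Polr2a, the largest RNA polymerase II subunit, had 0.739 and 0 kb over H3K4me3 of 5.09 and 3.54 kb, with WT H3K4me3 peaks over 96.6% of the domain. Without chromosomes 10 and 19, where mutant H3K4me1 peaks were frequent as given below, the mutant share fell to 18.6% (42 of 226).

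**Figure D4:**
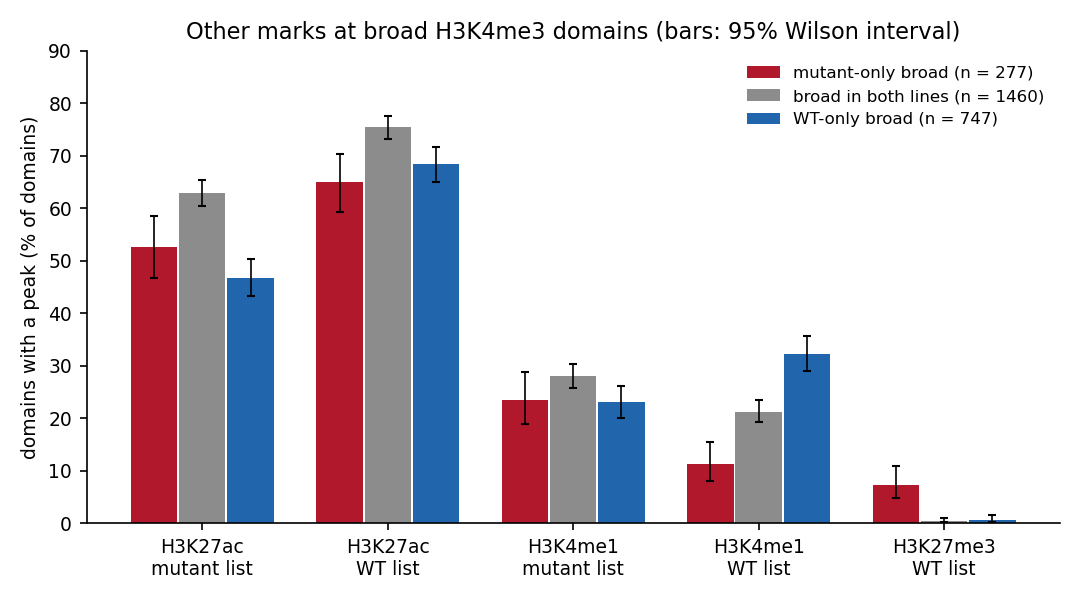
Share of domains that overlap a peak of each other mark (vertical axis, % of domains; bars with 95% Wilson intervals) for the 277 domains (red), the 1460 broad in both lines (grey) and the 747 broad in the WT line alone (blue). WT H3K27me3 is at 7.22% of the red class against 0.479% of the grey, and WT H3K4me1 is lowest in the red class, at 11.2%.

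The added H3K4me3 lay mainly downstream of the known gene start. This was measured at 106 domains with 1 WT peak and the known start of 1 gene inside. Genes without a known start were not considered, so some of these domains also lie at another gene. Examples are Pa2g4 with Erbb3 and Ccdc85b with Fosl1. There the side called upstream may belong to the other gene. The extra width was larger downstream of the start in 84 of 106 (79.2%, 70.6 to 85.9) and larger upstream in 22, with median extensions of 0.425 kb downstream and 0.115 kb upstream. Of the domains broad in both lines, 235 had this layout and were wider in the mutant, and 160 of them (68.1%, 61.9 to 73.7) extended more downstream, by medians of 0.199 and 0.0380 kb. The domains as a whole reached farther downstream in 97 of 106 (91.5%) and in 220 of 235 (93.6%), and both classes lay mostly downstream of the start in any case. The intervals of the shares of 79.2% and 68.1% overlap.

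A gene start, or a gene end where no start was known, lay within 1 kb of 256 of the 277 domains (92.4%, 88.7 to 95). The share was like that of domains broad in both lines (92.7%) and above that of those broad in the WT line alone (86.5%, 83.8 to 88.7). Matches to 2 or more genes, by a start or by such an end, were found at 52 domains (18.8%), against 22.9% and 13.7%. An end matched in this way need not be the start of its gene. Of the 21 domains with no gene matched, 10 lay inside a gene. Gene ends were not matched where a start was known, and the domain at Ddr2, among the 21, overlaps an end of that gene. Hairpins of 4 microRNA genes, Mir7050, Mir677, Gm51264 and Mir5131, lay within domains. Altogether 311 of 21887 protein-coding genes (1.42%) were at one of the 277 domains, 1698 (7.76%) at a domain broad in both lines and 752 (3.44%) at a domain broad in the WT line alone.

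Lineage genes among the 277 were few and named above in part. Of 24 melanocyte and pigment genes, Gpnmb and Sox10 were at such a domain, 2 were at domains broad in both lines and 0 at WT-only broad domains. Of 20 Schwann and glial genes, Sox10, Lgi4 and Erbb3, the neuregulin receptor, were at such a domain, with 2 and 0 in the other classes. All 3 were matched by a gene end, since their strand was not known. At Erbb3 the known start inside the domain was that of Pa2g4, an ERBB3-binding protein. Whether the Erbb3 start lies there too is not known here. The widths at this domain were 4.33 and 3.72 kb, with 0.510 kb of H3K4me1 in the mutant and 0 kb in the WT line. The shares of 8.33% and 15% stand beside 1.42% of all protein-coding genes and rest on 2 and 3 genes, 1 of them shared.

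Developmental regulators numbered 8 of 140 (5.71%), with 19 (13.6%) at domains broad in both lines and 5 (3.57%) at WT-only broad domains. The shares of all protein-coding genes were 1.42%, 7.76% and 3.44%. Among them Emx2, Foxf2, Isl1, Pax9, Shox2 and Tbx20 held WT H3K27me3. Tbx2, a T-box repressor of senescence, had 4.10 against 3.03 kb. None of 39 Hox genes was at a broad domain of any class. Of 26 genes of the neural crest or undifferentiated state, Yap1 and Fosl1 were at such a domain (4.37 against 3.87 kb and 4.79 against 3.94 kb) and 14 at domains broad in both lines. Fosl1 was matched by a gene end, and the known start inside that domain was that of Ccdc85b. Whether the Fosl1 start lies there too is not known here.

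Genes of growth and core cell functions were mostly represented by 1 or 2 members of each list. Their shares, from 3.70% (IGF and insulin) to 14.3% (AP-1), stand beside 1.42% of all protein-coding genes. For domains broad in both lines the share of all protein-coding genes was 7.76%. Of 27 IGF and insulin genes Igf2r, the receptor that clears IGF2, was at such a domain (4.09 against 3.39 kb), and 8 were at domains broad in both lines. Of 37 chromatin enzyme genes Crebbp, an H3K27 acetyltransferase (4.01 against 3.65 kb), and Eed, a Polycomb repressive complex 2 subunit (4.03 against 3.95 kb), were included, and 9 were broad in both lines. Mki67, a proliferation marker, was the 1 of 23 cell cycle genes (4.97 against 3.93 kb), Gpi1 the 1 of 22 glycolysis genes (4.18 against 3.78 kb) and Atp5b the 1 of 20 oxidative phosphorylation genes (5.17 against 3.87 kb). WT peaks together covered 98.9%, 92.4% and 74.7% of these domains. Of 19 MAPK feedback genes there was 1, Fosl1, and of 14 AP-1 genes 2, Atf3 and Fosl1. In both lists Fosl1 is the match by a gene end at the domain of Ccdc85b. Of 20 housekeeping genes there were 2, Polr2a and Rplp0 (4.09 against 3.98 kb), with 10 broad in both lines. No gene of the keratinocyte (18), fibroblast (12), endothelial (9) and immune (9) lists was at one of the 277.

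Ribosomal protein genes, a list chosen after its values were seen, were at the 277 domains in 13 of 86 cases (15.1%). At domains broad in both lines there were 29 (33.7%) and at WT-only broad domains 4 (4.65%). The shares of all protein-coding genes were 1.42%, 7.76% and 3.44%, so this list was above them in each class of broad domain. The 13 were Fau, Rpl17, Rpl23, Rpl24, Rpl39, Rpl6, Rplp0, Rps13, Rps14, Rps15, Rps2, Rps3a1 and Rps9. These genes are short and highly transcribed.

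The promoters of the 277 domains were CpG-rich like those of other broad domains. For 254 genes the RefSeq table held 291 promoter windows, with medians of 62.7% GC, 23.0 CpG and an observed-to-expected CpG ratio of 0.842. The 1677 windows of domains broad in both lines had 65.0%, 26 and 0.846, and all 21263 protein-coding windows 56.3%, 13.0 and 0.567. A ratio under 0.6 was found in 19.2% (15.1 to 24.2) of the windows, against 16.1% (14.4 to 17.9) in domains broad in both lines and 52.3% overall. The 3 windows of domains without a WT H3K4me3 peak, printed above, all fell under 0.6, whereas the 20 windows of domains with WT H3K27me3 had a median of 0.727 with 5 under 0.6.

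In these windows 8 short motifs were searched on both strands, none of which contains another although matches may overlap. The intervals of the shares overlapped between the 277 domains and those broad in both lines for each motif. GGGCGG, the core of SP/KLF sites, was in 70.4% (65.0 to 75.4) against 73.3% of windows of domains broad in both lines and 46.2% of all. CCAAT, bound by NF-Y, was in 40.9%, 36.4% and 38.2%, and CCGGAAGT, an ETS motif, in 8.93%, 7.99% and 5.15%. TATAAA, the TATA box, was in 8.59% (5.89 to 12.4), 5.90% (4.87 to 7.14) and 12.6%. CATGTG, an E-box form bound by MITF, was in 7.22%, 5.84% and 11.5%, AACAAT, a SOX motif, in 3.78%, 3.70% and 9.05%, TGANTCA, the AP-1 motif, in 4.12%, 4.23% and 6.99%, and GGAATG, the TEAD motif, in 8.93%, 11.2% and 13.6%. Of the printed windows, that of Klhl1 holds TATAAA at its last bases, after the start, and that of Tenm4 holds CATGTG.

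The domains were unevenly spread over the chromosomes. On chromosome 19 they made up 25 of 93 mutant broad domains (26.9%, 18.9 to 36.7), on chromosome 10 26 of 119 (21.8%, 15.4 to 30.1) and on chromosome X 12 of 36 (33.3%, 20.2 to 49.7). On all chromosomes other than these 3 they made up 214 of 1489 (14.4%, 12.7 to 16.2), although chromosome 13 was also high at 22.6% (15 to 32.6) and chromosome 6 low at 7.89% (3.67 to 16.2). Chromosomes 10 and 19 together held 51 of the 277 (18.4%), and on chromosome 10 the share was 28% (21 of 75) beyond 80 Mb.

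Peak numbers of the other marks on these chromosomes were as follows. For every 100 WT peaks of H3K27ac there were 92.8 mutant peaks on chromosome 10 and 116 on chromosome 19, against 67.9 on chromosomes other than 10, 19 and X. For H3K4me1 the numbers were 36.8 and 44.6 against 19.3, and for H3K4me3 79.4 and 84.4 against 76.9. On chromosome X they were 73.8, 42.1 (from 8 mutant and 19 WT peaks) and 90.7. Chromosomes 3 and 13 had H3K27ac numbers (77.8 and 75.2) above that of X, and chromosomes 4, 15 and 17 had H3K4me3 numbers (81.3, 80.1 and 80.9) above that of chromosome 10. Chromosome 13 had an H3K4me1 number of 17.3, below the 19.3 of chromosomes other than 10, 19 and X. Broad WT domains without a broad mutant peak were correspondingly fewer, 27.3% on chromosome 10, 23.6% on chromosome 19 and 20% on X, against 34.9% elsewhere. The part of chromosome-wide differences between the lines in these domains was not tested. The WT H3K27me3 share was 8.41% against 0.462% for domains broad in both lines without chromosomes 10 and 19, and 7.17% against 0.487% without X, so that contrast was as large without them.

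**Figure D5:**
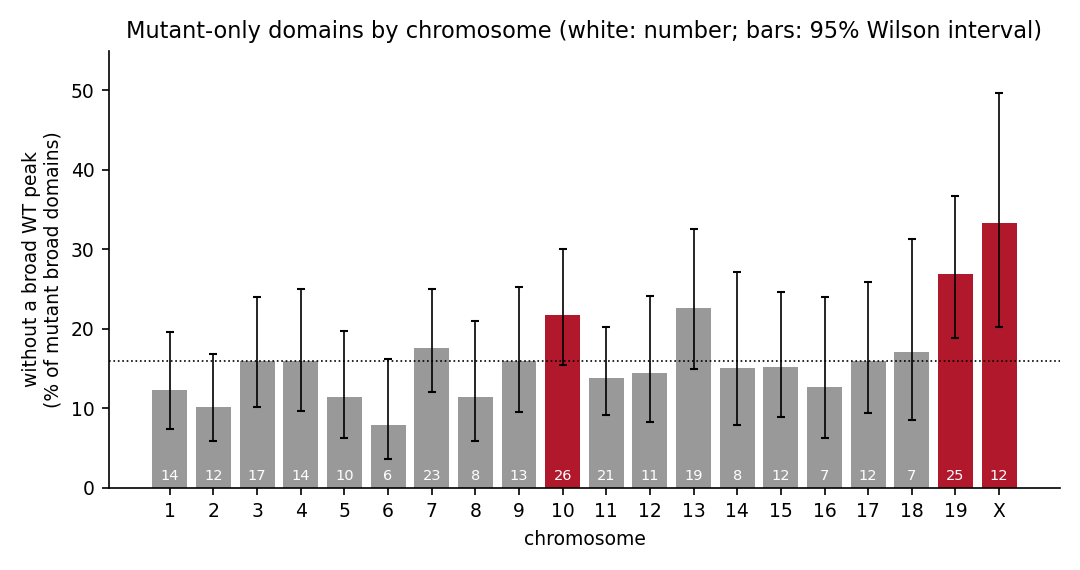
Share of the mutant broad domains of each chromosome that had no broad WT peak (vertical axis, %; bars with 95% Wilson intervals; white numbers count the domains; the dotted line is the share over all chromosomes, 15.9%). Chromosomes 10, 19 and X, in red, stand at 21.8%, 26.9% and 33.3%, and their intervals overlap those of several other chromosomes.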

How the data were processed

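Peak lists of 8 ChIP-seq libraries, 1 per line and mark, were analysed as deposited. The submitters' processing notes name the build mm10 and the tools FastQC, MultiQC and MACS2. The aligner, the read filters and the depth were not given in the sources used here, so the reads behind each peak are unknown. The H3K4me3 lists deposited by the authors, in an older MACS layout, give a score, which that layout defines as −10 log10 of p. The other lists deposited by the authors give each peak's fold over control (a ratio) and its −log10 p and −log10 q values. Scores and folds are the authors' own and only describe or rank peaks within a list. Per the file names, every list was called against its own line's input except the mutant H3K27me3 list, called against the WT H3K27me3 library.

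Peaks on autosomes, X and Y were kept, leaving out 0 to 10 per list. Overlap meant at least 1 bp. A gene was at a domain when its RefSeq start (GRCm38.p6; 17492 of 21887 protein-coding genes) lay inside or within 1 kb. For the other 4395, among them Sox10, Lgi4, Syt4, Tbx2, Nptx1, Shc3, Erbb3, Fosl1, Ctsb, Cemip2 and Hspa9, either gene end was used, since strand was not known. Named are domains without a WT peak, the 10 with the largest width beyond WT, the 5 most covered by WT peaks, the 5 of highest score, the 3 on each side of the threshold, all with H3K27me3, the 5 with most mutant H3K27ac and H3K4me1, and genes of the lists; some of these are not reported here. Shares have 95% Wilson intervals, and a count of 0 an upper limit of 3 counts. The interval code was tested on 600 simulated regions. Python 3.11.15, pandas 2.3.3 and SciPy 1.17.1 were used. The regions, gene lists and tests were chosen with earlier results of these data known. Alternatives were other widths, joined peaks, score and overlap rules, lists of equal length and left-out chromosomes.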

Additional observations from a re-analysis of the deposited data

How the results depend on the processing

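Of 78 recomputed values in 13 settings, 58 stayed within counting error of the main value, or within 1.5 times for the count of domains, and 20 did not. A width of 3 kb in both lists gave 517 domains, with H3K27ac at 42.4% (mutant list) and 52.2% (WT list) and H3K4me1 at 13.9% and 7.35%. A width of 5 kb gave 149 domains, mutant H3K27ac at 59.7% and WT H3K4me1 at 16.1%, and the widest 5% of each list (4.75 and 4.80 kb) gave 60.0% and 16.2%. When no WT peak of 3 kb or more was allowed, 55 domains remained, of which 10.9% had no WT H3K4me3, 23.6% had WT H3K27me3, 36.4% and 40.0% had H3K27ac and 12.7% and 7.27% H3K4me1. Lists of equal length gave WT H3K27ac at 54.9% and WT H3K4me1 at 1.81%; for H3K27me3 this was not run, since no counterpart list was called against input. Without chromosomes 10 and 19 mutant H3K4me1 was at 18.6%. Joining peaks within 1 kb gave 245 domains, and a score of at least 100 gave 277, of which 7 (2.53%) had no WT peak. WT H3K27me3 stayed more frequent than in domains broad in both lines under the other definitions of width, 9.09% against 0.975% at 3 kb, 6.04% against 0.167% at 5 kb, 5.95% against 0.280% at the widest 5% and 10.2% against 1.01% after joining. Leaving out chromosome X was chosen after seeing the data and moved no value beyond counting error. No paired analysis was possible because each line had 1 library per mark. Depth per library is unknown, so an uncalled peak may lie below a list's threshold.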
